A study of Mus musculus with 8 samples.

Results

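Thy1, Cd44, Icam1, Fut4, Pecam1 and Alpl encode surface proteins, or enzymes with a product or activity at the cell surface, that are used to follow the stages of reprogramming. The open chromatin around these 6 mouse genes was examined. Members were chosen by name, and a peak was taken to belong to a gene when it overlapped the gene body or the 50 kb to each side by at least 1 bp (mm10). The 6 windows spanned 863.7 kb and held 45 of the 56514 peaks listed in mouse embryonic fibroblasts (MEFs), 22 of 36219 on day 5, 27 of 35226 on day 10 and 34 of 48486 in embryonic stem cells (ESCs). The 6 genes stood against 21938 protein-coding genes counted in the same way.

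ATAC-seq was used, an assay that marks accessible DNA with a transposase that cuts and tags it. There were 8 libraries in 4 groups, 2 per group, and 1 peak list per group. The MEFs were untreated and of strain C57BL/6J-OG2, which carries a green fluorescent reporter driven by Pou5f1 sequence. The day 5 and day 10 groups were MEFs of that strain that had received OCT4, SOX2, KLF4 and MYC (OSKM) by retrovirus together with a FLAG control vector, in ESC medium with vitamin C. The ESCs were untreated by their labels, with library 1 labelled C57Bl6J and library 2 labelled C57BL/6J-OG2. The methods of the study place the ESCs used in ATAC-seq in medium with LIF and the inhibitors CHIR99021 and PD0325901. The part of this medium in the differences between ESCs and the other groups was not tested. No group carried a gene deletion by its label. The infected groups were bulk cultures in which cells at several stages can be mixed. No list of a single library was used, so there is no replicate error and no p-value below, and the number of reads behind each list is unknown.

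THY1 is a glycoprotein anchored at the cell surface of fibroblasts and T cells, and CD44 is the receptor for the matrix polymer hyaluronan. ICAM1 is an adhesion protein that binds leukocyte integrins. FUT4 is a fucosyltransferase that can build the Lewis X sugar, which antibodies to embryonic cells detect, PECAM1 is an adhesion protein of endothelial cells that mouse ESCs also carry, and ALPL is the tissue-nonspecific alkaline phosphatase whose activity stains pluripotent colonies. In reprogramming, fibroblast surface proteins are known to be lost early and proteins of the pluripotent state to appear later. The study used flow cytometry, with cells positive for ICAM1 and CD44 as the somatic state. Cells positive for ICAM1 and negative for CD44 were the pluripotent state. It described alkaline phosphatase staining as a marker of the early phase.

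The labelled cell types were compared with marker genes first. These marker lists were chosen with earlier results of these data known, so the counts are no independent check. All 8 fibroblast markers (among them Col1a1, Prrx1 and Twist2) had a peak over a start site in MEFs, 6 had one on day 5, 4 on day 10 and 2 in ESCs. The 2 in ESCs were Col1a2 and Twist1, which were covered in all 4 lists. Of the 8 ESC markers, 2 had a start-site peak in MEFs (Esrrb and Tfcp2l1), 2 on day 5, 2 on day 10 and 6 in ESCs. Pou5f1 and Dppa5a had none in ESCs. All 8 fibroblast markers had more peaks in MEFs than in ESCs, against 42.2% of all protein-coding genes, and all 8 ESC markers had fewer, against 35.6%. A start-site peak was found for 60.0% of all protein-coding genes in MEFs, 52.1% on day 5, 56.0% on day 10 and 55.8% in ESCs. Esrrb, a nuclear receptor of naive pluripotency, had 5 peaks in MEFs, 0 on day 5, 0 on day 10 and 16 in ESCs, and Dppa4, an ESC chromatin protein, had 0, 0, 0 and 7. In the same order, Pou5f1 had 5, 5, 8 and 9, Nanog 6, 6, 7 and 10, and Zfp42 0, 2, 1 and 6. Tfcp2l1 had 2, 6, 6 and 9, Dppa5a 2, 0, 2 and 7, and Tdh 3, 2, 3 and 5. Pecam1, Icam1, Thy1 and Cd44 are also used by endothelial or blood cells. Of the 6 endothelial markers, 2 had a start-site peak in MEFs, 2 on day 5, 3 on day 10 and 3 in ESCs, while none of the 6 blood markers, Ptprc among them, had one in any of the 4 lists. The endothelial genes with such a peak were Kdr and Tek in all 4 lists and Cldn5 at day 10 and in ESCs. Their part in the peaks described here was not tested.

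The lists differed in which start sites a peak covered. A start site was the first base of any annotated GENCODE transcript of the gene, and it counted as covered when a peak overlapped it. In MEFs, 5 of the 6 genes had a covered start site (Thy1, Cd44, Icam1, Fut4 and Alpl), against 60.0% of all protein-coding genes. At day 5 only Cd44 had one, against 52.1% of genes, and at day 10 Cd44 and Alpl had one, against 56.0%. In ESCs only Icam1 had one, against 55.8%. Pecam1 had none in any list. With these GENCODE start sites, none of the 6 genes showed the pattern that was most frequent in the genome. That pattern, a start site covered in all 4 lists, was found for 46.8% of protein-coding genes. The pattern of Cd44 (MEFs, day 5 and day 10) was that of 3.35% of genes, the pattern of Thy1 and Fut4 (MEFs alone) that of 2.56%, the pattern of Icam1 (MEFs and ESCs) that of 2.07% and the pattern of Alpl (MEFs and day 10) that of 1.47%. A start site uncovered in every list, as for Pecam1, was found for 35.4%.

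For Icam1 and Fut4 these calls turned on short distances. The day 10 peak at Icam1 ended 7 bp before the annotated start site. The peaks at Fut4 in ESCs, at day 5 and at day 10 ended 109 bp, 246 bp and 255 bp inside the gene, short of the start site. With the start sites of RefSeq messenger RNAs, which lie elsewhere in both genes, the day 10 peak covered the Icam1 start site and all 4 lists covered that of Fut4. The patterns given above for Icam1 and Fut4 thus did not hold with RefSeq, where Fut4 was covered in every list. The counts then became 5 of 6 in MEFs, 2 on day 5, 4 on day 10 and 2 in ESCs, against 59.0%, 51.0%, 55.1% and 54.2% of the 21774 RefSeq genes with such a transcript. Thy1, Cd44, Alpl and Pecam1 kept the same calls with either annotation.

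**Figure D1:**
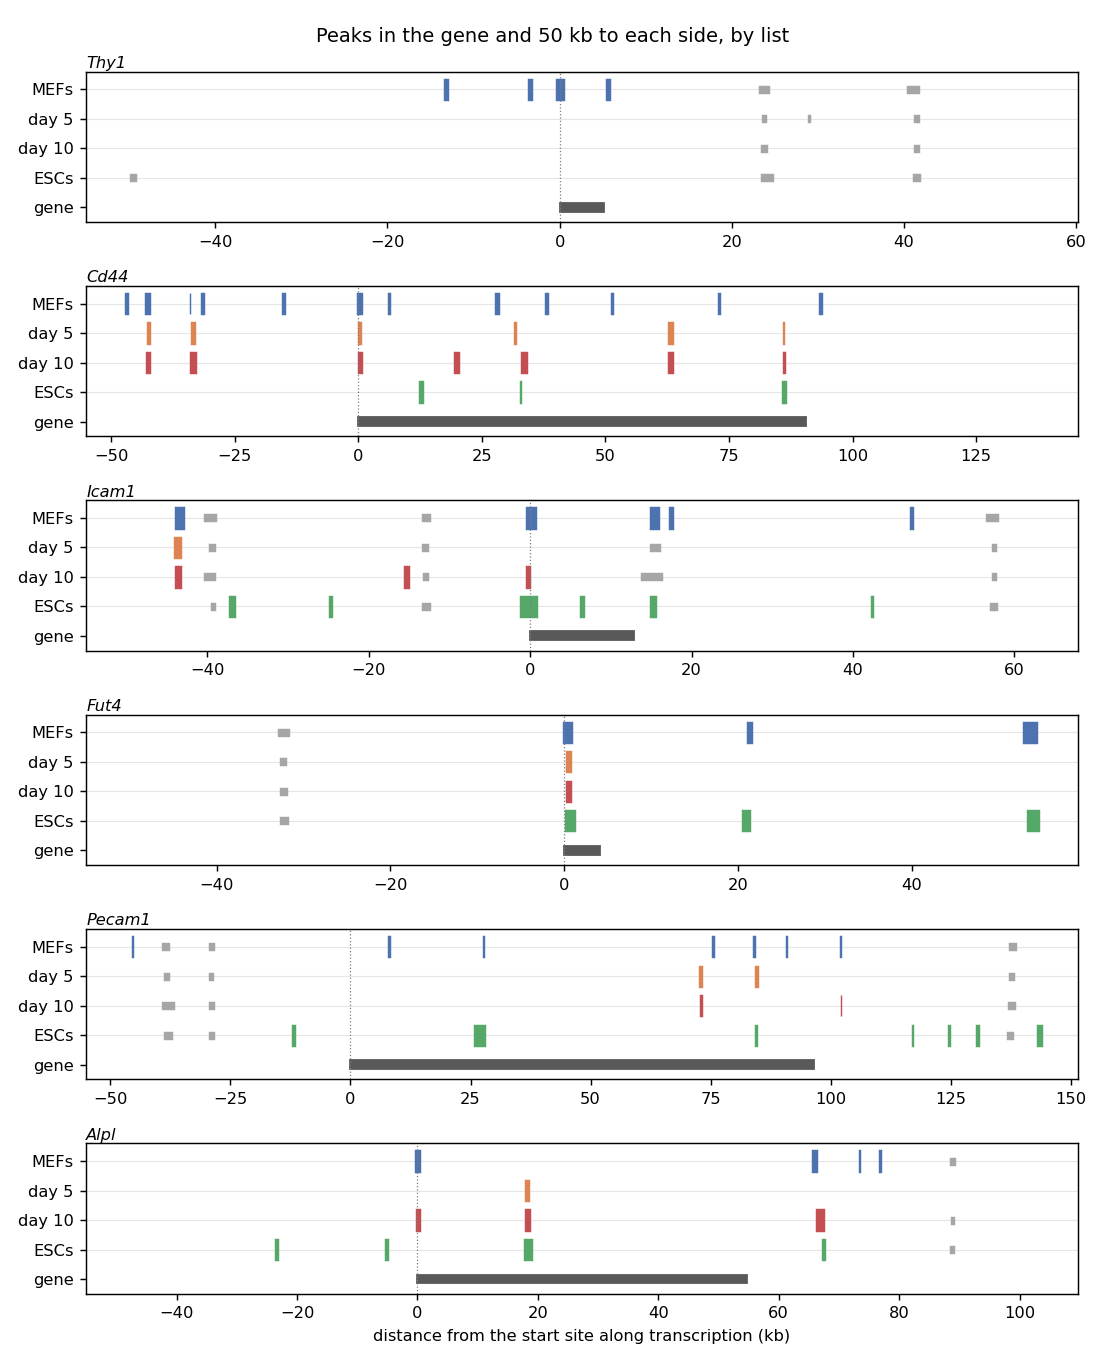
Peaks of the 4 lists in the windows of the 6 genes. The horizontal axis gives the distance in kb from the 5′-most start site along the direction of transcription, each row of a panel is 1 list, tall coloured boxes are peaks, low grey boxes are peaks over the start site of another gene, and the dark bar is the gene. At Thy1 every coloured box is in MEFs. At Cd44 the start site is covered in 3 rows and empty in ESCs.

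Thy1 (ENSMUSG00000032011.5, chr9:44043384-44048579, plus strand) had no peak of its own outside MEFs. Its window held 6 peaks in MEFs, 3 on day 5, 2 on day 10 and 3 in ESCs. Of the MEF peaks 4 were not over the start site of another gene, whereas this number was 0 on day 5, 0 on day 10 and 0 in ESCs. The MEF peak over the start site (chr9:44042967-44043846) had a fold enrichment of 3.12 and ranked at 48.9% of its list by −log10 q, where a small percentage is a strong peak. The other MEF peaks lay 13 kb and 3.2 kb upstream of the start site and 5.4 kb downstream of it, just past the end of the gene, with fold enrichments of 2.46, 3.35 and 3.73. The strongest of these 4 by rank was that 3.2 kb upstream, at 40.4%, and the weakest was that 13 kb upstream, at 98.1%. The nearest peak to the Thy1 start site lay 23.5 kb away at day 5, 23.4 kb away at day 10 and 23.4 kb away in ESCs. In each case this was the start site of Usp2, a deubiquitinase gene, which was open in all 4 lists. The 200 bp at the centre of the MEF peak 3.2 kb upstream are shown because they held 2 matches to the AP-1 motif, the site of the FOS and JUN proteins that is frequent in fibroblast open chromatin. The matches are in capitals (plus strand, GRCm38, chr9:44039845-44040044).
Thy1 upstream MEF peak: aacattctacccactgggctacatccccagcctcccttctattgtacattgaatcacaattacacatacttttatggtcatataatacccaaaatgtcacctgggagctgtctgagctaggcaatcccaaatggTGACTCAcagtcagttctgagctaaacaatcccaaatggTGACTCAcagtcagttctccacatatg
Both matches lay within a stretch of 31 bp that was present in 2 exact copies in this window.

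Cd44 (ENSMUSG00000005087.17, chr2:102811141-102901665, minus strand) had 12 peaks in MEFs, 6 on day 5, 7 on day 10 and 3 in ESCs, and no start site of another gene was covered in its window. Among protein-coding genes, 95.5% had fewer peaks than Cd44 in MEFs, 82.1% on day 5, 85.5% on day 10 and 28.3% in ESCs. The Cd44 window of 190.5 kb is longer than most. Its 18 regions, made by merging peaks of the 4 lists within 400 bp, comprised 12 with a peak in MEFs and not in ESCs, 3 with the reverse, 3 listed on a reprogramming day alone, and 0 with a peak in both MEFs and ESCs. No position around Cd44 was thus shared between MEFs and ESCs.

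The Cd44 start site was covered in MEFs (chr2:102900809-102901869), at day 5 (chr2:102901000-102901739) and at day 10 (chr2:102900955-102901784). The fold enrichment was 3.50 in MEFs, 5.03 at day 5 and 3.97 at day 10, and the ranks were 10.3%, 4.65% and 13.7%. The day 5 peak therefore stood higher within its own list than the MEF peak did in its list, and the nearest ESC peak lay 12.3 kb away, inside intron 1. The sequence from 250 bp before the start site to 50 bp after it (RefSeq, GRCm38.p6, chr2:102901616-102901915, minus strand) is shown because its peak was present in all lists but that of ESCs. It had a GC content of 58.0% and held no match to any of the 8 motifs searched.
Cd44 promoter: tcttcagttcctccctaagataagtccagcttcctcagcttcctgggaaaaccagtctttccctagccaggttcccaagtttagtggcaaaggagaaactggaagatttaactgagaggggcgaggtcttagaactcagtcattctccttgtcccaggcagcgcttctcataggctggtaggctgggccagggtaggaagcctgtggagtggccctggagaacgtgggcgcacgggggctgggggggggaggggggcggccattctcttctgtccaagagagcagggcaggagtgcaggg

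Upstream of Cd44, the strongest MEF peak of the window (chr2:102943711-102944778) lay 42 kb before the start site. It had a fold enrichment of 3.84 and ranked at 3.38% in MEFs. The peaks at the same place ranked at 81.1% at day 5 and at 63.7% at day 10, with fold enrichments of 3.05 and 3.18, and none was listed in ESCs. At the start site the day 5 peak had the highest rank of the 3 lists, and here it had the lowest. A region 32.9 kb upstream was listed at day 5 and day 10 over 780 bp and 1149 bp, and in MEFs over only 7 bp (chr2:102935591-102935597), so that its class rested on that short piece. The centre of the region at 42 kb (plus strand, chr2:102944145-102944344) is shown with its match to the TEAD motif in capitals.
Cd44 upstream peak: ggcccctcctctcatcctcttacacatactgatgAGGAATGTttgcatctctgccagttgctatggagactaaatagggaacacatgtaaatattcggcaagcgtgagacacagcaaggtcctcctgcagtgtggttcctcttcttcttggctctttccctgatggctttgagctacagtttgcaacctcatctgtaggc

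Inside Cd44, all 4 lists had peaks in intron 1, at different positions for the most part. MEF peaks lay in introns 1, 2, 5 and 15, and apart from the start site none of them overlapped a peak of another list. In intron 11, a region 62.6 kb from the start site (chr2:102838049-102839020) was listed at day 5 and day 10 and neither in MEFs nor in ESCs. The day 5 peak there had a fold enrichment of 5.50 and ranked at 1.40% of the list, the strongest day 5 peak around any of the 6 genes. At day 10 the fold enrichment was 4.29 and the rank 10.4%. A region in intron 18 (chr2:102815215-102815984) was listed in ESCs with a fold enrichment of 5.24 and a rank of 9.95%, at day 10 with 3.57 and 56.8%, and at day 5 with 2.82 and 96.8%. An ESC peak in intron 1 (chr2:102888583-102889368) had a fold enrichment of 5.20, ranked at 11.2% and had no counterpart in the other lists. The ESC list thus had strong peaks within Cd44 although none covered its start site.

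The other region that was listed on both days of reprogramming and in neither end state lay in intron 14 of Pecam1 (chr11:106677481-106678144). It ranked at 81.4% at day 5 and at 54.0% at day 10, and was thus much weaker within its lists than the Cd44 region. The 200 bp centres of these 2 regions are shown together because both held a match to the SOX motif (CCATTGT or CCTTTGT) and to the KLF motif (CCACACCC, CCACGCCC, CCCCACCC or CCCCGCCC), and the Pecam1 window also held an AP-1 match. All matches are in capitals, on the plus strand of chr2:102838435-102838634 and chr11:106677713-106677912.
Cd44 intron 11: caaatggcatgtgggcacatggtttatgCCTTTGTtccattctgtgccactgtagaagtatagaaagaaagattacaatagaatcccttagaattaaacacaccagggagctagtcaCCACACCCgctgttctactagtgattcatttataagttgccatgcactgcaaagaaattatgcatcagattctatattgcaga
Pecam1 intron 14: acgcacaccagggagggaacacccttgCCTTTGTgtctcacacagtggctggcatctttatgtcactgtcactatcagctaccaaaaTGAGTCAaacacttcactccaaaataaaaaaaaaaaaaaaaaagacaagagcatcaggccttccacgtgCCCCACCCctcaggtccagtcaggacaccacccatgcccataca
Of all 6968 regions that were listed on both days and in neither MEFs nor ESCs, 1.72% held both matches. This pair of motifs was picked because these 2 regions held it, so the share is no test of enrichment. A match is a string of letters and not a bound site.

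Icam1 (ENSMUSG00000037405.8, chr9:21015985-21028817, plus strand) had the most ESC peaks per window length of the 6 genes. Its window held 8 peaks in MEFs, 5 on day 5, 7 on day 10 and 9 in ESCs, of which 3, 4, 4 and 3 lay over the start sites of other genes. The start site was covered in MEFs (chr9:21015468-21016705, fold enrichment 2.93, rank 68.1%) and in ESCs (chr9:21014728-21016858, fold enrichment 2.96, rank 49.4%). At day 10 a peak with a fold enrichment of 2.86 and a rank of 88.5% ended just before it. At day 5 the nearest peak was 12.6 kb away, at the start site of Mrpl4, a gene of the mitochondrial ribosome. All of these start-site peaks were thus in the weaker part of their lists or close to the middle. An ESC peak in intron 2 (chr9:21022116-21022605), ranked at 70.0%, was the only one inside the gene away from the start site. The RefSeq sequence around the start site (chr9:21015690-21015989, plus strand), whose GC content was 64.7%, is shown because the day 10 peak ended within it. It held no match to the 8 motifs.
Icam1 promoter: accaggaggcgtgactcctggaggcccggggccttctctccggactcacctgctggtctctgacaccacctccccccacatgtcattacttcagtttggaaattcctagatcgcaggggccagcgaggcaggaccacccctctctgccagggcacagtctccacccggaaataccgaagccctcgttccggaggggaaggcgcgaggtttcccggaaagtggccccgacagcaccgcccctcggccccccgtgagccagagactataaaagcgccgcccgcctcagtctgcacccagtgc

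Beside Icam1, the start sites of S1pr2, Mrpl4 and Fdx1l were covered in all 4 lists. Icam5, a relative of Icam1 that is used by neurons, had its start site covered at day 5 and day 10, whereas the MEF peak stopped 93 bp and the ESC peak 471 bp short of it. The MEF peak there ranked at 4.00% of its list and was the strongest MEF peak around Icam1. A region 42.9 kb upstream of Icam1 was listed in MEFs, at day 5 and at day 10, with ranks of 25.4%, 83.4% and 67.8%, and not in ESCs. ESC peaks without a counterpart lay 36.5 kb and 24.6 kb upstream and 42.3 kb downstream of the start site.

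Fut4 (ENSMUSG00000049307.6, chr9:14748320-14752393, minus strand), a gene of 1 exon, had 4 regions in its window, and all of them were common to MEFs and ESCs. There were 4 peaks in MEFs, 2 on day 5, 2 on day 10 and 4 in ESCs. The region at the 5′ end of the gene (chr9:14751195-14752551) was listed in all 4, with fold enrichments of 3.47 in MEFs, 3.33 on day 5, 3.36 on day 10 and 3.04 in ESCs. The ranks were 35.7%, 74.2%, 62.9% and 65.8%. The other region listed in all 4 was the shared start of Ankrd49 and Mre11a, which encodes a DNA repair nuclease. The 2 remaining regions, 20.5 kb and 52.8 kb downstream, were listed in MEFs and ESCs and on neither day of reprogramming, and the second crosses the edge of the window. The RefSeq promoter sequence (chr9:14752073-14752372, minus strand) is shown because every list had a peak on its start site. Its GC content was 68.0%, and it held 1 KLF match, in capitals.
Fut4 promoter: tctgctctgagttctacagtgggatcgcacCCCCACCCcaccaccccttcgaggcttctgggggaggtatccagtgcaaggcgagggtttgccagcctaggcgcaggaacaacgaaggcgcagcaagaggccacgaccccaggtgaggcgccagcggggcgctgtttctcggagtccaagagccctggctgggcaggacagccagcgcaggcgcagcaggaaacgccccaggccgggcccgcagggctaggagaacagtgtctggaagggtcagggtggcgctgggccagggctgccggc

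Pecam1 (ENSMUSG00000020717.19, chr11:106654217-106750628, minus strand) had 8 annotated start sites and no peak over any of them in any list. Its window held 10 peaks in MEFs, 5 on day 5, 5 on day 10 and 10 in ESCs, and in each list 3 of these lay over start sites of other genes (Tex2, Polg2, and Cep95 with Ddx5). The nearest peak to the 5′-most start site was 7.9 kb away in MEFs and 11.5 kb away in ESCs. At day 5 and day 10 it was 28.5 kb and 28.4 kb away and belonged to Polg2. The ESC peak 11.5 kb upstream (chr11:106762092-106762722) had a fold enrichment of 5.07 and ranked at 10.1%, while the MEF peak 7.9 kb downstream, in intron 1, had a fold enrichment of 2.84 and ranked at 83.7%. Of the 7 MEF peaks that were not over another start site, the ranks ran from 64.9% to 92.6%. The other ESC peaks without a counterpart lay in a cluster of 4 from 116.9 kb to 143.0 kb past the start site, beyond the end of the gene and on both sides of the Tex2 start site, with ranks between 56.9% and 88.0%. The centre of the upstream ESC peak (plus strand, chr11:106762307-106762506) is shown as the strongest peak of the window away from a start site. It held no match to the 8 motifs.
Pecam1 upstream ESC peak: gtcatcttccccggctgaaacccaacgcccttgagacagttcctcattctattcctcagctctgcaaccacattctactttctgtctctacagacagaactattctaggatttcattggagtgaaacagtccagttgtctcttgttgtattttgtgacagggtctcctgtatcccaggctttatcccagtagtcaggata

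Alpl (ENSMUSG00000028766.10, chr4:137741733-137796384, minus strand) shared no position between MEFs and ESCs within the gene or upstream of it. Its window held 5 peaks in MEFs, 1 on day 5, 4 on day 10 and 5 in ESCs. The 5′-most start site was covered in MEFs (chr4:137795952-137796712, fold enrichment 3.62, rank 48.6%) and at day 10 (chr4:137795887-137796695, fold enrichment 3.48, rank 48.9%). No peak covered it at day 5 or in ESCs, and the nearest ESC peak was 4.8 kb upstream. A region in intron 4 (chr4:137777338-137778753) showed the reverse, with a peak on day 5, on day 10 and in ESCs and none in MEFs. Fold enrichments there were 3.95 on day 5, 3.45 on day 10 and 2.96 in ESCs, and ranks were 42.5%, 38.3% and 64.0%. It held the only day 5 peak around Alpl. Day 10 was therefore the only list with both the 5′-most start site and the intron 4 region. Another RefSeq start site of Alpl, at chr4:137766475, was covered in no list. The intron 4 region lay between it and the 5′-most start site. Beyond the gene, ESC peaks without a counterpart lay 4.8 kb and 23.2 kb upstream, and MEF peaks without one lay 73.3 kb and 76.7 kb past the start site.

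The RefSeq sequence at the 5′-most Alpl start site (chr4:137796335-137796634, minus strand) and the centre of the intron 4 region (plus strand, chr4:137777946-137778145) are shown because the lists divided between these positions. The first had a GC content of 70.0% and held 26 CG dinucleotides and 2 KLF matches, in capitals. The second had a GC content of 44.0%, 1 CG dinucleotide and no match.
Alpl promoter: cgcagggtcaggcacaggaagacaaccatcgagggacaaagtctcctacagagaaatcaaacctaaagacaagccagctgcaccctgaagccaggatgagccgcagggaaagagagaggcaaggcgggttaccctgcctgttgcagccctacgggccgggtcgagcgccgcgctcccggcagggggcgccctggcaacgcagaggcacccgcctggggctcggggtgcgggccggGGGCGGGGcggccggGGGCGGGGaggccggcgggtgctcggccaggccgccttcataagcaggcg
Alpl intron 4: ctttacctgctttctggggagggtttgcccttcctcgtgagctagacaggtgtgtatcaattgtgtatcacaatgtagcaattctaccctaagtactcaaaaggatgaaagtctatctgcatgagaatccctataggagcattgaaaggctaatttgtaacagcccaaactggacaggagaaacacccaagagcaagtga
Among the 32851 RefSeq promoters of this length, 29.7% held a KLF match.

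**Figure D2:**
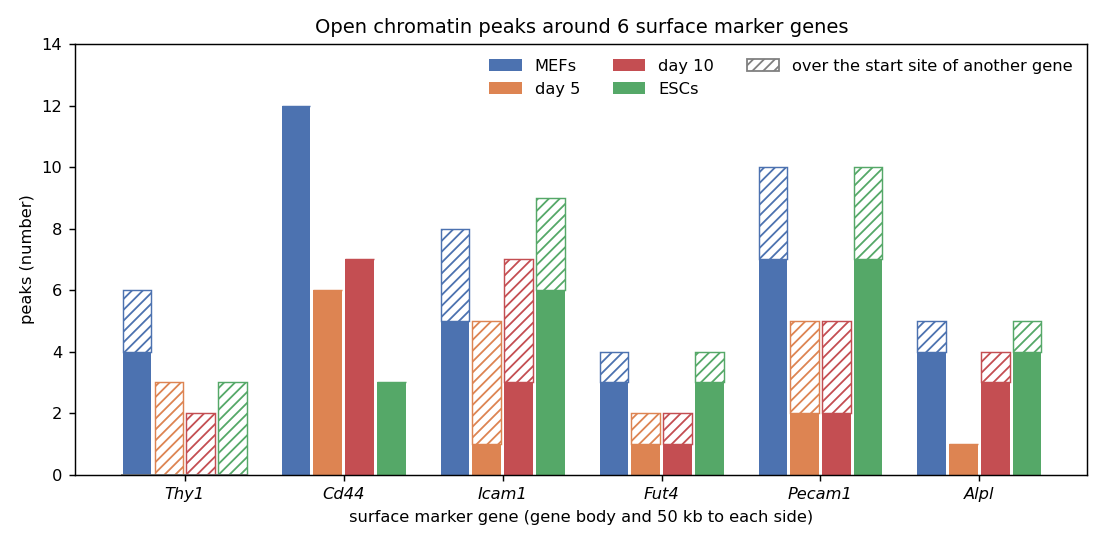
Number of peaks in each window by list (vertical axis), with hatching for peaks over the start site of another gene. Cd44 has 12 peaks in MEFs and 3 in ESCs, none of them hatched, and around Thy1 all peaks on day 5, on day 10 and in ESCs are hatched.

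Across the windows, 2 of the 6 genes (Thy1 and Cd44) had more peaks in MEFs than in ESCs, against 42.2% of all protein-coding genes, and 1 (Icam1) had fewer, against 35.6%. The other 3 had as many. The MEF list is the longest, so each list was also reduced to its 35226 strongest peaks. Thy1 then had 5 peaks in MEFs and 2 in ESCs, and Cd44 had 7 and 2. These were again the 2 genes with more in MEFs, against 34.6% of genes, whereas the other 4 had fewer in MEFs, against 38.2%. Pecam1 moved furthest, to 3 peaks in MEFs and 8 in ESCs. The total over the 6 windows turned from 45 in MEFs and 34 in ESCs to 25 and 28, so no order of the totals can be given.

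All 6 genes had fewer peaks at day 5 than in MEFs, against 63.2% of protein-coding genes, and 4 had fewer than in ESCs, against 60.1%. With lists of equal size, 4 of the 6 had fewer at day 5 than in MEFs, against 35.6%. At day 10, 3 genes (Cd44, Icam1 and Alpl) had more peaks than at day 5, against 33.0% of genes. A weaker peak in such a bulk culture can come from fewer open cells or from less open chromatin in each cell, which cannot be told apart.

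The windows contained 67 merged regions. Of these 27 had a peak in MEFs and not in ESCs, a class that made up 36.4% of all 101701 regions. Another 16 had a peak in ESCs and not in MEFs, against 28.4% of all regions, 18 had a peak in both, against 19.1%, and 6 were listed on a reprogramming day alone, against 16.1%. A merged region can hold MEF and ESC peaks that do not overlap each other. Of the 45 MEF peaks, 16 overlapped an ESC peak, against 33.3% of the whole MEF list. Of the 27 MEF regions, 4 had a peak at day 5 and 6 at day 10, where all regions of that class gave 14.2% and 14.8%. Of the 16 ESC regions, 2 had a peak at day 5 and 3 at day 10, where all regions gave 10.7% and 12.6%. The 2 ESC regions already listed at day 5 were those in intron 18 of Cd44 and intron 4 of Alpl, and both were listed at day 10 as well. The third at day 10 was a region in intron 1 of Cd44 (chr2:102867487-102868997). All 11 regions listed in all 4 groups lay at a start site of another gene, apart from that at the 5′ end of Fut4.

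Ranks are given by kind of position. Peaks over start sites of other genes had a median rank of 19.6% in MEFs, 36.2% on day 5, 31.5% on day 10 and 27.0% in ESCs. The remaining peaks had median ranks of 64.9%, 74.2%, 63.3% and 62.1%. Of these, 2 of 35 in MEFs, 2 of 11 on day 5, 0 of 16 on day 10 and 1 of 23 in ESCs were among the strongest 10% of their list. The 2 at day 5 were both in Cd44, at the start site and in intron 11.

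**Figure D3:**
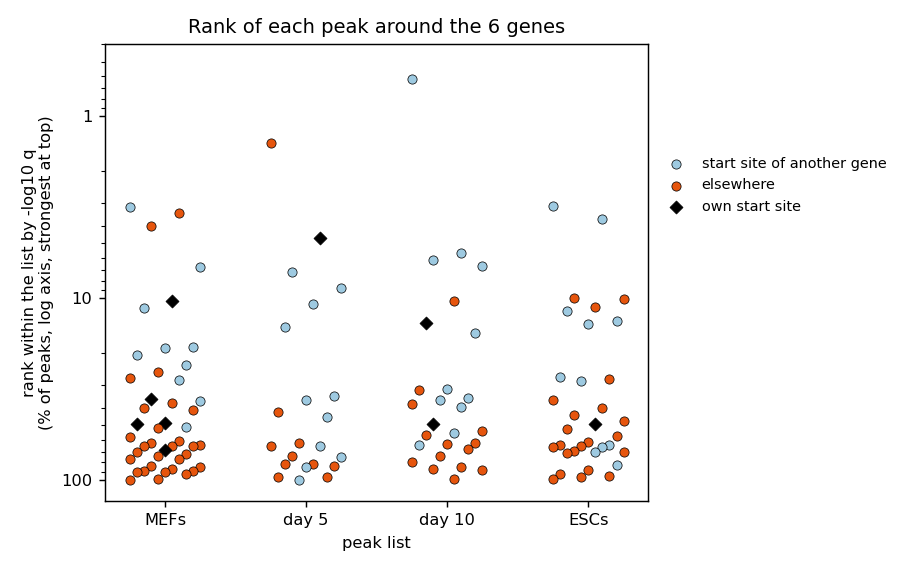
Rank of every peak in the 6 windows within its own list by −log10 q (vertical log axis, strongest at the top), with black diamonds for peaks over the gene's own start site, blue circles for those over another gene's and orange circles for the rest. The orange circle near 1.40% at day 5 is intron 11 of Cd44, and most orange circles have a rank of more than 50%, toward the weak end at the bottom.

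Motif matches were counted on both strands in the 200 bp at the centre of each region. The AP-1 motif (TGACTCA, which is TGAGTCA on the other strand) was found in 4 of the 27 MEF regions, against 23.0% of all regions of that class. They were upstream of Thy1, in intron 15 of Cd44, downstream of Icam1 and downstream of Pecam1. It was found in 0 of the 16 ESC regions, against 3.94%. SOX matches were found in 5 of the 16 ESC regions, against 14.5%, and in 0 of the 27 MEF regions, against 6.77%. The 5 were 2 regions around Icam1, 2 around Pecam1 and 1 upstream of Alpl. KLF matches were found in 12 of the 67 regions, against 11.1% of all regions, 3 of them among the 6 listed only on a reprogramming day, a class in which 10.9% of all regions held one. The octamer of OCT4 (ATGCAAAT) was found in 1 of the 67 regions, upstream of Thy1, against 2.19%, and the ESRRB motif (TCAAGGTCA) in 1, in intron 14 of Pecam1, against 0.682%. The TEAD motif (ACATTCCA, ACATTCCT, GCATTCCA or GCATTCCT) was found in 3, against 6.83%. The RUNX motif (TGTGGTTA or TGTGGTTT) and the CTCF motif were found in 0, against 3.11% and 1.12%. These zeros hold for the 200 bp centres. Over whole regions, RUNX matches were found in 7 and CTCF matches in 3 of the 67, against 10.4% and 2.95% of all regions, AP-1 matches in 1 of the 16 ESC regions, against 11.3%, and SOX matches in 2 of the 27 MEF regions, against 22.6%. The numbers are small, and several positions of 1 gene are not independent.

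Relatives of the 6 genes were counted over lists of names. In the alkaline phosphatase family, Alpi, Alppl2 and Akp3 had no covered start site in any list, and Akp3 had 3 peaks in MEFs, 1 on day 5, 1 on day 10 and 5 in ESCs. Among the 8 fucosyltransferases, Fut4 included, start sites were covered for 5 in MEFs, against 60.0% of protein-coding genes. In each other list 4 were covered, against 52.1% on day 5, 56.0% on day 10 and 55.8% in ESCs. Fut9, which makes the Lewis X sugar in early embryos and brain, was covered in all 4 lists, with 3 peaks in MEFs, 1 on day 5, 1 on day 10 and 9 in ESCs. None of the 8 had more peaks in MEFs than in ESCs, against 42.2% of protein-coding genes, and 5 had more in ESCs, against 35.6%. Icam2, an endothelial member of the ICAM family, had 2 peaks in MEFs, 0 on day 5, 0 on day 10 and 2 in ESCs, with no covered start site.

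Of 12 other surface proteins of fibroblasts, 10 had a covered start site in MEFs, against 60.0% of protein-coding genes, and 7 in each of the other lists, against 52.1% to 56.0%. Fap and Pdgfrb were counted both here and among the fibroblast markers. More peaks in MEFs than in ESCs were found for 8, against 42.2% of protein-coding genes, and fewer for 2, Pdgfra (2 and 5) and Nt5e (3 and 8), against 35.6%. The start sites of Fap, a membrane protease, and of Cd248, a sialomucin also called endosialin, were covered in MEFs alone, like that of Thy1. Those of Pdgfrb, a growth factor receptor, and Vcam1, an adhesion protein, were covered in MEFs and on both days and not in ESCs, like that of Cd44. Vcam1 had 8, 3, 2 and 3 peaks from MEFs through day 5 and day 10 to ESCs. The start site of Eng, a TGF-beta co-receptor, was covered in ESCs alone, and those of Pdgfra, Nt5e, Itga5, Itgb3 and Cd81 were covered in all 4 lists. Of 12 other surface proteins of pluripotent or epithelial cells, 10 were covered in MEFs, 8 on day 5, 9 on day 10 and 9 in ESCs. The shares of all protein-coding genes were 60.0%, 52.1%, 56.0% and 55.8%. Epcam, an epithelial adhesion protein, and Tdgf1, a co-receptor of Nodal, had start sites covered in MEFs and at day 10 and not at day 5 or in ESCs, like Alpl. Of these 12 genes, 5 had more peaks in MEFs than in ESCs and 6 had fewer, against 42.2% and 35.6% of protein-coding genes. Kit, the receptor of stem cell factor, had 3 in MEFs and 9 in ESCs, Tdgf1 had 2 and 7, Cd9 had 13 and 11, and Sirpa had 6 and 3.

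**Figure D4:**
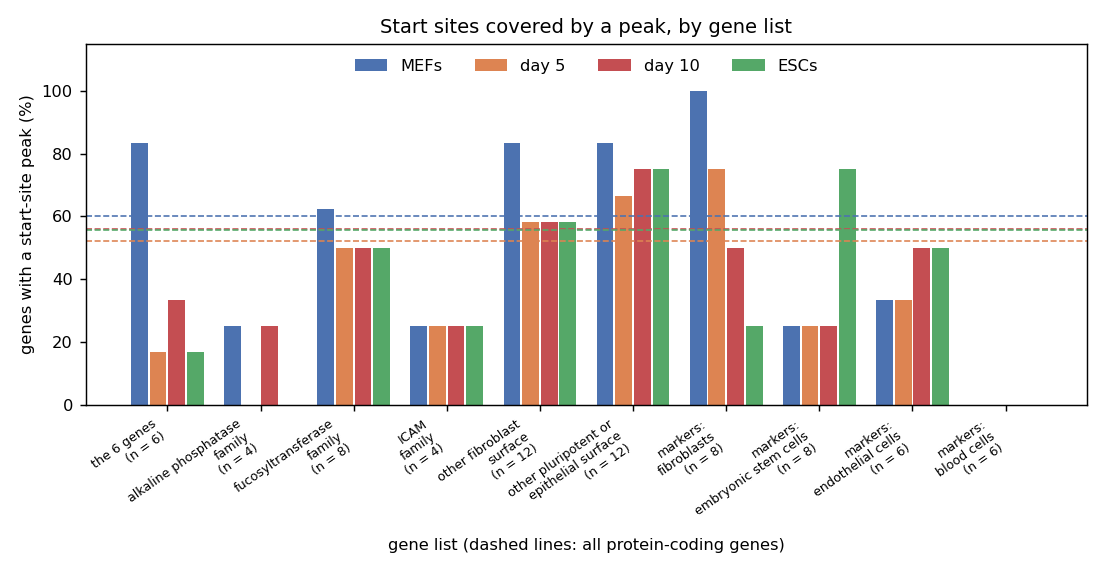
Share of genes with a peak over a start site (vertical axis, %) by gene list and peak list, with dashed lines for all protein-coding genes in the colour of each peak list. With GENCODE start sites, the 6 genes reach 5 of 6 in MEFs and 1 or 2 of 6 in the other lists, and the blood markers have none.

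The genes on other chromosomes whose 4 peak counts were nearest were found by the sum of absolute differences over the lists. Cox5b and E2f8 had the same 4 counts as Thy1, Erlin2 and Aph1a the same as Icam1, Magel2 and Avpr2 the same as Fut4, and Comp and Ola1 the same as Alpl. Tmtc1 had the counts of Pecam1, and Lrrc20 differed by 1 peak. No protein-coding gene on another chromosome had the counts of Cd44. Adarb1, with 12, 6, 7 and 2 peaks from MEFs through day 5 and day 10 to ESCs, and Myo16, with 12, 5, 7 and 3, came within 1 peak. The counts of Fut4 were shared by 44 such genes and are thus not distinctive. Those of Thy1 were shared by 10, those of Icam1 by 3, those of Alpl by 2 and those of Pecam1 by 1.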

How the data were processed

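Sample titles gave the groups. Reads had been mapped by the authors to mm10 with Bowtie2 (2.2.0 per the submitters' processing notes) and filtered by mapping quality. The labels and the methods differ in that threshold and in whether ESCs grew on feeder cells, and a part of feeder cells in the ESC peaks was not tested. The ATAC-seq peak caller is not given in the sources used here. The deposited lists, 1 per group, hold intervals with a score, the ratio over background called fold enrichment, a −log10 p-value (not used) and a −log10 q-value, all from the authors. Interval names are those of replicate 1, which suits an overlap of the peaks of both libraries, although no source says so, and fold and q would then belong to the replicate 1 peak. Ranks were taken within each list. Fold enrichments and ranks of different lists are printed side by side above. The lists differ in length and their read depth is unknown, so these values are not on a common scale. The deposited lists give no read counts, and columns of other series numbered 0.

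Peaks were assigned to gene bodies with 50 kb to each side (GENCODE mouse release 21, Python 3.11.15), and merged within 400 bp into regions. Exons were merged over transcripts and numbered along transcription, and a peak was placed by its midpoint. Distances run from the 5′-most start site to the nearest base of the peak. Motifs were searched in 200 bp at the centre of the widest peak of a region. The promoter table matched 4 of the 6 genes. Neighbours were named when a peak lay over their start site, and the 2 genes with the nearest counts were named for each gene. Overlap, merging and motif search were tested on simulated data. Members and lists were chosen with earlier results of these data known. The sequences shown were chosen after their values were seen.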

Additional observations from a re-analysis of the deposited data

How the results depend on the processing

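No paired analysis was possible because each group is held as 1 joint list, and for the same reason no replicate could be left out. The difference between MEFs and ESCs in peaks over the 6 windows was 11, became -3 with lists of equal size and 28 with flanks of 100 kb. With flanks of 10 kb the windows held 21 peaks in MEFs, 9 on day 5, 12 on day 10 and 11 in ESCs, and with 100 kb 79 in MEFs. With equal sizes MEFs had 25. Without peaks over other genes' start sites, an alternative chosen after seeing the data, 11 remained at day 5 and 16 at day 10. Genes with a start site within 1 kb of a peak numbered 2 on day 5, 4 on day 10 and 2 in ESCs, and RefSeq start sites, also chosen after seeing the data, gave 2, 4 and 2. MEF regions numbered 16 with 10 kb, 54 with 100 kb and 14 with equal sizes. ESC regions numbered 6 and 26 with 10 kb and 100 kb. Common regions numbered 5 with 10 kb and 11 with equal sizes, and transient regions 10 with equal sizes. The other 50 values of these results moved by at most 1.5 times, among them all under the stricter threshold. For single genes and motifs, 89 values moved by more and 131 did not. The cause was not tested. Unknown read depth limits every list, and an absent peak does not show closed chromatin.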
